A study of Mus musculus with 3 samples.

Results

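The 34 genes described here encode enzymes of the lysosome, proteins of its membrane, and the transcription factors Tfeb and Tfe3 that control them. They were taken by symbol from a list of lysosomal genes, and all 34 were found among the 50043 gene IDs of the deposited table. The samples were KH2 cells, mouse embryonic stem cells made for targeted inducible transgenes, with an inducible knockout of Pold3, a gene for an accessory subunit of DNA polymerase delta. There was 1 library of RNA for each of 3 passages, P0, P1 and P2, all from cells that carry the inducible allele, and the labels give neither what drives the knockout nor when it was induced relative to P0. The study asked how the transcriptome differed between passages.

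The lysosome is an acidic organelle in which proteins, sugar chains, glycogen and lipids are taken apart by hydrolases. Most of these enzymes are tagged with mannose 6-phosphate in the Golgi and carried to the organelle, whose membrane is shielded by heavily glycosylated proteins such as Lamp1 and Lamp2. TFEB and TFE3 are held in the cytoplasm when mTORC1 phosphorylates them at the lysosome, and enter the nucleus when it does not. In mouse embryonic stem cells, the removal of TFE3 from the nucleus with the help of folliculin is known as a step in leaving self-renewal.

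Levels are in FPKM, fragments scaled to gene length and library size. With 1 library per passage there is no replicate, so no p-value is given and every difference is between libraries. Passage and library cannot be told apart. Changes were called where either library of a pair reached FPKM 1. A gene rose or fell when its FPKM differed by at least 1.5-fold, and it passed 2-fold when log2(FPKM + 1) differed by at least 1, a stricter rule for low genes. Ratios carry exact 95% intervals from the reads behind the FPKM values, which cover counting error only.

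The depths of P0, P1 and P2 were 23213528, 18059914 and 22405670 reads. Pold3 measured 49.2, 13.03 and 11.6 FPKM, lower at both later passages. All 7 stem cell markers looked at, among them Pou5f1 and Nanog, exceeded 1 FPKM in each library. Their summed level was 3569, 3489 and 3811 FPKM, of which Dppa5a made up 1089, 1107 and 1322. At P2, 3 of the 7 were above P0 and 4 below, with a median log2 difference of -0.09. Esrrb, at 221, 127 and 118 FPKM, fell. Of 17 macrophage and blood cell markers, 1 reached FPKM 1 at P0 and P1 and 3 did at P2. Of 10 trophoblast markers, which summed to 75.5, 126 and 164 FPKM, 9 were compared between P0 and P2 and 6 of these passed 2-fold upward. Of all genes compared between P0 and P2, 6.72% did. Of the 10 markers, 5 reached FPKM 1 at P0 and 9 at P2. Those that entered through P2 alone could only differ upward, so the count is not set against that share. Fibroblast markers summed to 8.55, 17.9 and 20.6 FPKM and those of extraembryonic endoderm to 11.1, 14.0 and 15.8. The part of these cell types in the results was not tested, and in bulk RNA more cells of a type and more RNA per cell cannot be told apart.

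TFEB and TFE3 are known to bind E-boxes with the letters CACGTG in the promoters of lysosomal genes, best in the longer form TCACGTGA. Both motifs read the same on either strand, and the longer one contains the shorter. RefSeq promoter windows of GRCm38.p6, from 250 bases before to 50 after each gene start, were found for 29 of the 34 genes. The others were Asah1, Ctsb, Ctsh, Laptm4b and Npc1. CACGTG was in a window of 10 of the 29 (34.5%), against 7.15% of all 32851 windows, 8.09% of all gene symbols and 11.9% of the symbols compared between P2 and P0. TCACGTGA was in 4 of the 29 (13.8%), against 0.974% of windows and 2.18% of those compared symbols. These counts describe letters in the windows and say nothing of binding in these cells.

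The stretches below show the E-box, in capitals, in genes that differ in what their RNA did. Ctsd, Gaa and Glb1 rose, while Mcoln1 and Lamp1 stayed within 1.5-fold. The first 4 are 30 bases long, and the place of the E-box's first letter is given from the gene start, with a minus sign before it. Coordinates are of GRCm38.p6 and sequences run 5′ to 3′ on the gene's strand. Ctsd lies at chr7:142387908-142387937 (minus strand, E-box at -98), Gaa at chr11:119267811-119267840 (plus, E-box at -140) and Glb1 at chr9:114401018-114401047 (plus, E-box at -48). Mcoln1 lies at chr8:3500462-3500491 (plus, E-box at -45). The stretch of Lamp1 covers the 150 bases before the start, chr8:13159011-13159160 (plus strand), and holds 4 E-boxes.
Ctsd: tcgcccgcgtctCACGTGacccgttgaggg
Gaa: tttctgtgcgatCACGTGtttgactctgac
Glb1: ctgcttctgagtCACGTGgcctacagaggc
Mcoln1: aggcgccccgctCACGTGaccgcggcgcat
Lamp1: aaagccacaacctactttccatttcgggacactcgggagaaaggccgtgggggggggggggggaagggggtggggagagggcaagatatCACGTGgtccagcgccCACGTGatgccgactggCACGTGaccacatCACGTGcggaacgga

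Of these 5 printed stretches, those of Ctsd and Mcoln1 hold the longer form, and each of these genes has another CACGTG in its window. For contrast, the 150 bases before the starts of Man2b1 and Cd68, which passed 2-fold, have no CACGTG, and none was in the rest of their windows or in that of Laptm5, the other gene past 2-fold. Man2b1 is at chr8:85083119-85083268 (plus strand) and Cd68 at chr11:69666171-69666320 (minus strand).
Man2b1: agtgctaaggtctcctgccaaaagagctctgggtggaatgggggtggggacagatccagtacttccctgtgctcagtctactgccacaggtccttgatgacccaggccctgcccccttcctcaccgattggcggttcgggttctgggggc
Cd68: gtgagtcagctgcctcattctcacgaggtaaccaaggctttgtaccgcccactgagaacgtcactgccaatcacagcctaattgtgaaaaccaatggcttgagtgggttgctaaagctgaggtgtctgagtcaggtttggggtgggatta

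By change between P0 and P2, CACGTG was in 3 of 8 risers with a window, in 0 of 2 that fell and in 7 of 19 that stayed within 1.5-fold. Ctsh, which also rose, had no window, and with so few genes the shares were not compared.

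**Figure D1:**
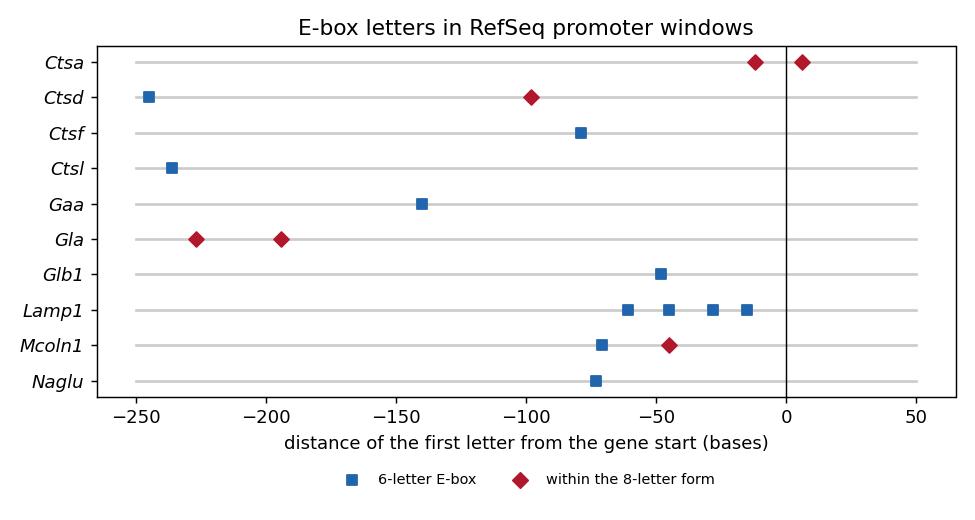
Position of CACGTG (blue squares) and of CACGTG within TCACGTGA (red diamonds) in the promoter windows of the 10 genes that have them, as the distance of its first letter from the gene start in bases. The 4 E-boxes of Lamp1 lie between -61 and -15, and Ctsa and Gla each have both of their E-boxes in the longer form.

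The summed level of the lysosomal genes was higher at the later passages, while members differed widely and in direction. The sum was 1288 FPKM at P0, 1675 at P1 and 1739 at P2. Man2b1, Cd68 and Laptm5 carried much of this, since without them the sums were 1150.1, 1334 and 1359.9 FPKM. The median log2 differences from P0 without them were 0.16 at P1 and 0.11 at P2. These genes are the members past 2-fold upward, so leaving them out could only lower the medians. The median level was 31.3, 32.6 and 30.3 FPKM, and at P2 24 of the 34 genes were above P0 and 10 below, or 18 above with libraries scaled by the median of ratios, which makes the typical gene equal between libraries. At P0 the levels ran from 0.570 FPKM for Ctsh to 171 for Lamp1, and 23 of the 34 lay above the median of all genes with FPKM of at least 1, as they did at P1 and P2.

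**Figure D2:**
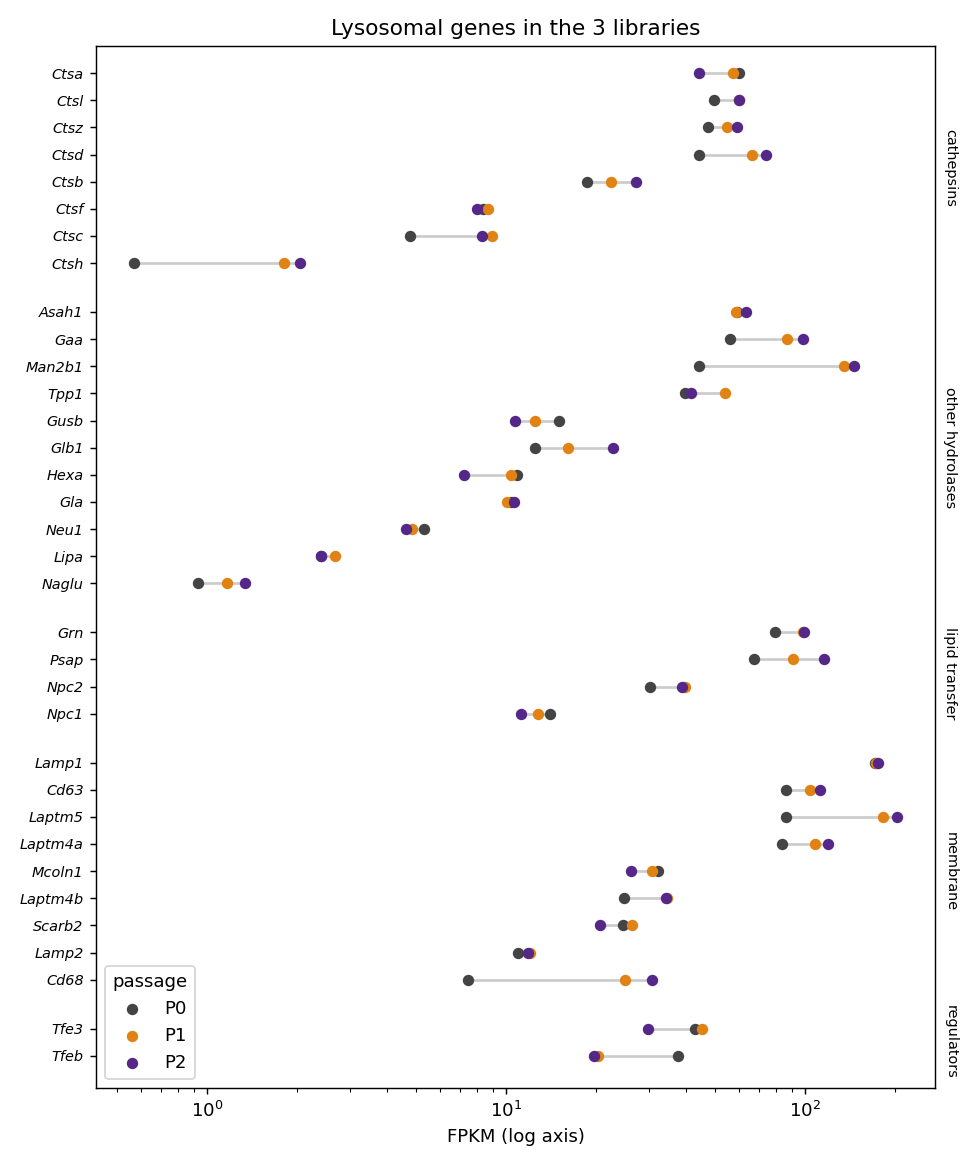
FPKM (log axis) of the 34 lysosomal genes at P0 (grey), P1 (orange) and P2 (purple), grouped by role and ordered by the level at P0, with 1 library per point and a line from the lowest to the highest. Man2b1, Cd68, Laptm5 and Ctsh show P1 and P2 close together and far above P0, and Tfeb shows them far below.

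From P0 to P1, 3 of the 34 genes passed 2-fold upward (8.82%), where 4.12% of all 13288 genes compared did, and 0 passed it downward (background 0.549%). By the 1.5-fold rule 7 rose (20.6%, background 16.3%) and 1 fell (2.94%, background 4.16%). From P0 to P2, 3 passed 2-fold upward (8.82%, background 6.72% of 13472) and 0 downward (background 1.16%). At 1.5-fold, 9 rose (26.5%, background 20.2%) and 2 fell (5.88%, background 6.46%). With median-of-ratios scaling 9 rose and 4 fell at P2, with backgrounds of 16.5% and 9.97% under that scaling. With quantile normalization, by which the libraries share their spread of levels, 9 rose and 3 fell, with backgrounds of 13.8% and 13.2%. The share of lysosomal genes that rose at P2, 26.5%, was above that of all genes in these 3 settings. With an FPKM floor of 5, 8 of 31 members rose, with a background of 12.5%. With no floor on FPKM the share of members stayed at 26.5% and was below that of all genes, 35.7% of 25176.

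The median difference in log2(FPKM + 1) over the 34 genes was 0.23 from P0 to P1 and 0.28 from P0 to P2, where all genes compared had medians of 0.06 and 0.07. Median-of-ratios scaling moved the medians of all genes to -0.05 in both comparisons. Relative to all genes the lysosomal median was 0.18 higher at P1 and 0.21 higher at P2, and 0.17 and 0.22 higher under that scaling. The genes were chosen with earlier results of these data known, so these differences describe this list only. Counting intervals lay above a ratio of 1 for 19 genes at P1 (55.9%, background 34.5%) and below it for 2 (5.88%, background 22.6%). At P2 these were 18 (52.9%, background 39.6%) and 8 (23.5%, background 25.7%). Both comparisons share the P0 library. Intervals narrow as reads grow, and 23 of the 34 genes lay above the median of genes with FPKM of at least 1 in each library. The shares of intervals thus depend on level as well as on difference.

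**Figure D3:**
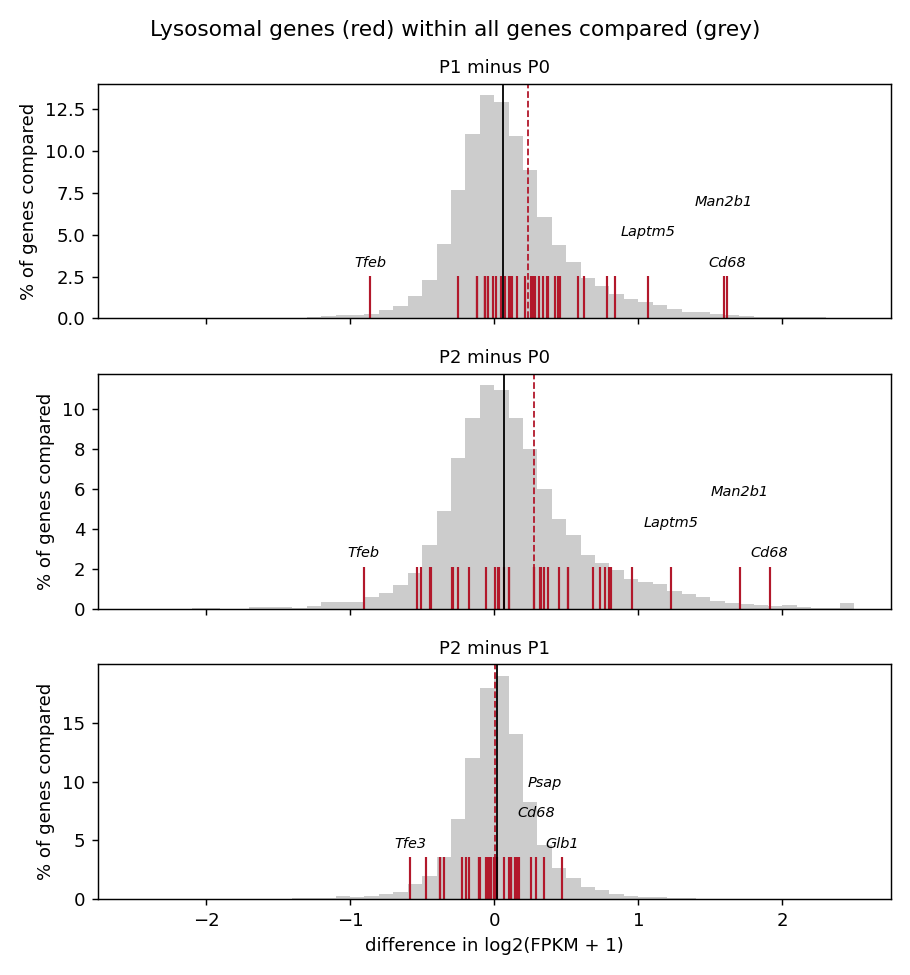
Difference in log2(FPKM + 1) between pairs of libraries for all genes compared (grey, percent of genes in bins of 0.1, with values beyond 2.5 in the end bins) and for each lysosomal gene (red ticks), with the median of all genes as a black line and of the lysosomal genes as a dashed red line. The red median stands to the right of the black one against P0, by 0.18 at P1 and 0.21 at P2, and on top of it between P1 and P2.

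Between P1 and P2 the lysosomal genes differed little. None passed 2-fold (backgrounds 0.78% higher and 0.883% lower of 13585), 0 rose at 1.5-fold (background 6.92%) and 1, Tfe3, fell (2.94%, background 4.59%). The median difference was 0.00, against 0.02 over all genes. Counting intervals lay above 1 for 12 genes (35.3%, background 24.1%) and below 1 for 8 (23.5%, background 18.9%), shares that again depend on level too. Taking FPKM as it stands, 15 of the 34 genes were higher at each step (44.1%, and 31.8% of all genes) and 7 were lower at each step (20.6%, and 19.5% of all). A further 10 were highest at P1 (29.4%, and 25.6% of all), and 2, Gla and Asah1, were lowest there (5.88%, and 23% of all). Many of these steps were within counting error.

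The cathepsins are the main lysosomal proteases, and they did not move as a block. Their summed level was 233, 281 and 283 FPKM. Of the 8, 3 rose at both later passages (backgrounds 16.3% at P1 and 20.2% at P2), and 0 fell (backgrounds 4.16% and 6.46%).

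Ctsd, the aspartic protease, measured 44.1 FPKM at P0, 66.4 at P1 and 74.1 at P2. Both later libraries were above P0, by 1.51-fold (interval 1.41 to 1.61) and 1.68-fold (interval 1.58 to 1.79). The rise at P1 sits on the 1.5-fold line and was not called with either other scaling. In GENCODE M21, 34.4% of the exonic bases of Ctsd are shared with the gene model Gm49369, so its reads could be split with that model.

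Ctsc, a dipeptidyl peptidase that activates serine proteases of immune cells, measured 4.78, 8.96 and 8.31 FPKM. It was 1.88-fold higher at P1 (interval 1.54 to 2.29) and 1.74-fold at P2 (interval 1.44 to 2.11), with no further rise between them. Ctsh, an aminopeptidase, was the lowest of all 34 genes at P0, at 0.570 FPKM, and measured 1.804 at P1 and 2.05 at P2. These values rest on 13, 32 and 45 reads. Its ratio at P2, 3.59, has an interval of 1.90 to 7.25, and on the log2(FPKM + 1) scale the difference was 0.96, short of the 2-fold rule.

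Ctsb, a cysteine protease with an added carboxypeptidase activity, was just under the 1.5-fold line at P2, with 18.6, 22.5 and 27.1 FPKM and a ratio of 1.45 (interval 1.37 to 1.54). Ctsl, a cysteine endopeptidase, measured 49.4, 60.3 and 60.1 FPKM, a ratio of 1.22 at both later passages. Ctsz, a carboxypeptidase, measured 47.2, 54.8 and 59.3. These genes were above P0 by more than their counting error and below 1.5-fold.

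Ctsf measured 8.38, 8.69 and 8.0 FPKM, within counting error throughout. Ctsa, a serine carboxypeptidase that also stabilises the enzymes Glb1 and Neu1, was the cathepsin with the highest level at P0 and the lowest ratio at P2. It measured 59.9, 57.4 and 44.0 FPKM, and was 1.36-fold lower at P2 than at P0 (interval 1.26 to 1.47). Exons of Ctsa, Ctsb and Ctsl are shared with other genes over 17.4%, 12.8% and 26.8% of their bases in GENCODE M21.

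The other hydrolases cut sugar chains, lipids and peptides. They summed to 256, 393 and 409 FPKM, of which Man2b1 made up most of the difference, with sums of 212, 257 and 263 FPKM without it. Of the 11, 2 rose at P1 (background 16.3%) and 3 at P2 (background 20.2%), and 1 fell at P2 (background 6.46%).

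Man2b1, the acid alpha-mannosidase that trims mannose from N-linked sugar chains, measured 44.1 FPKM at P0, 135 at P1 and 146 at P2. The P0 library stood far below the others, by 3.06-fold at P1 (interval 2.92 to 3.22) and 3.31-fold at P2 (interval 3.15 to 3.47). Its reads numbered 2243, 5347 and 7156. Its level went from percentile 76.3 of the genes with FPKM of at least 1 at P0 to percentile 93.3 at P2.

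Gaa, the acid alpha-glucosidase that breaks down glycogen, measured 56.1, 87.1 and 98.2 FPKM. That was 1.55-fold above P0 at P1 (interval 1.46 to 1.65), a call lost with median-of-ratios scaling, and 1.75-fold at P2 (interval 1.66 to 1.86). Glb1, the beta-galactosidase whose activity is stained as a marker of senescent cells, measured 12.5, 16.1 and 22.7 FPKM. Unlike Man2b1 and Gaa, which were nearly at their P2 level by P1, Glb1 had its larger step between P1 and P2, at 1.41-fold (interval 1.29 to 1.54). Its ratio of P2 to P0 was 1.81 (interval 1.66 to 1.99).

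Hexa, the alpha subunit of beta-hexosaminidase, fell. It measured 10.9 FPKM at P0, 10.4 at P1 and 7.20 at P2, so that P0 and P1 were alike within counting error and P2 stood below both. It was 1.51-fold lower at P2 than at P0 (interval 1.31 to 1.74), on the 1.5-fold line. Of its exonic bases, 12.8% are shared with Tmem202 in GENCODE M21.

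Gusb, the beta-glucuronidase, was lower by less, with 15.01, 12.4 and 10.7 FPKM and 1.40-fold lower at P2 (interval 1.23 to 1.59), past 1.5-fold with median-of-ratios scaling. Tpp1, a tripeptidyl peptidase, was high in the P1 library only, at 39.5, 54.0 and 41.5 FPKM. Its ratio was 1.37 at P1 (interval 1.26 to 1.49) and 1.05 at P2 (interval 0.965 to 1.14).

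The other hydrolases stayed near their P0 level. Asah1, the acid ceramidase, measured 59.1, 58.8 and 63.6 FPKM, and its 1.08-fold difference at P2 (interval 1.011 to 1.15) turned downward with median-of-ratios scaling. Gla, the alpha-galactosidase A, measured 10.4, 10.03 and 10.6 FPKM. Lipa, which frees cholesterol and fatty acids from lipoprotein lipids, was low at 2.40, 2.67 and 2.41 FPKM. The counting intervals of Gla and Lipa hold a ratio of 1 in all 3 comparisons, and so do those of Neu1, a sialidase, and Naglu, an enzyme of heparan sulfate breakdown. Neu1 measured 5.32, 4.83 and 4.61 FPKM. Naglu measured 0.933, 1.16 and 1.34 FPKM from 31, 30 and 43 reads, too few to tell a 1.44-fold ratio at P2 from 1 (interval 0.885 to 2.36).

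Psap encodes the precursor of the saposins, small proteins that lift lipids out of membranes for the hydrolases. It measured 67.5, 90.8 and 116 FPKM and was higher at each step, by 1.35-fold from P0 to P1 (interval 1.29 to 1.40) and 1.28-fold from P1 to P2 (interval 1.23 to 1.33). Over both steps it rose 1.72-fold (interval 1.65 to 1.78). Grn, which encodes progranulin, a secreted protein that is also carried to lysosomes, measured 79.2, 98.5 and 99.0 FPKM. Its ratio at P2 was 1.25 (interval 1.17 to 1.33).

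Npc1 and Npc2 act in sequence to export cholesterol from the lysosome, Npc2 as the soluble carrier and Npc1 as the membrane protein that receives it. Their ratios to P0 went opposite ways. Npc2 measured 30.4, 39.6 and 38.8 FPKM, 1.28-fold higher at P2 (interval 1.21 to 1.35), and Npc1 measured 14.0, 12.8 and 11.2 FPKM, 1.25-fold lower at P2 (interval 1.14 to 1.37). Both differences were under 1.5-fold.

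**Figure D4:**
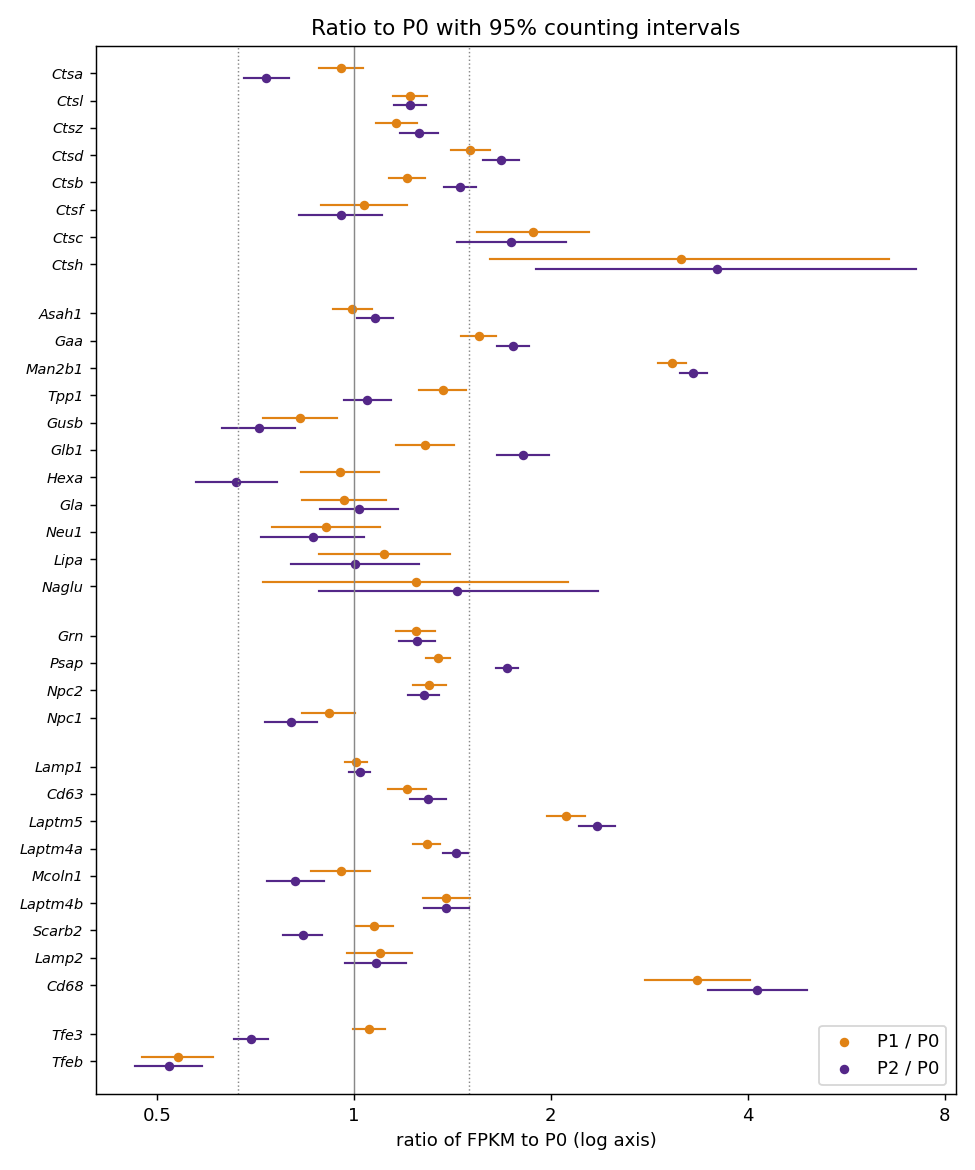
Ratio of FPKM to P0 (log axis) at P1 (orange) and P2 (purple) for each lysosomal gene, with exact 95% counting intervals as bars and dotted lines at 1.5-fold either way. Man2b1, Cd68 and Laptm5 stand beyond 2 at both passages with narrow bars, Ctsh stands there with wide ones, and Tfeb lies near 0.5 at both.

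Among the 9 membrane genes, 2 rose and 0 fell at either later passage. The shares of all genes compared were 16.3% risen and 4.16% fallen at P1, and 20.2% and 6.46% at P2. Laptm5 and Cd68 made up most of the difference in the sum, which was 527, 695 and 733 FPKM with them and 434, 488 and 499.7 without.

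Cd68 encodes macrosialin, a glycoprotein of late endosomes and lysosomes known as a macrophage marker. It measured 7.44 FPKM at P0, 24.9 at P1 and 30.7 at P2. Both later libraries were high, at 3.35-fold (interval 2.79 to 4.03) and 4.13-fold (interval 3.48 to 4.93), the highest ratios of the 34 genes at P1 and P2. P2 was also above P1, by 1.23-fold (interval 1.09 to 1.40).

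Laptm5, a lysosomal transmembrane protein best known in blood cells, where it sends receptors for degradation, measured 86.1 FPKM at P0, 182 at P1 and 203 at P2. It was above P0 by 2.11-fold (interval 1.97 to 2.25) and 2.35-fold (interval 2.21 to 2.51). At P1 its log2 difference of 1.07 became 0.95 with median-of-ratios scaling, just under the 2-fold rule. It was the third highest of the 34 genes at P0 and the highest at P1 and P2.

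Both genes are known from macrophages, so the other macrophage and blood cell markers are given beside them. Their 17 levels summed to 13.3, 18.04 and 18.02 FPKM, of which Coro1a, an actin-binding protein gene, made up 11.9, 14.5 and 13.8. The 3 markers compared between P0 and P2 were Coro1a, Cd14 and Spi1. Cd14 and Spi1 reached FPKM 1 at P2 only, so the floor let them in only as genes above P0, and no median is given. Tyrobp and Cx3cr1 had 0 reads in all 3 libraries, where 3 reads over a length of 2 kb come to 0.0646, 0.0831 and 0.0669 FPKM. The pan-leukocyte gene Ptprc had 5, 17 and 10 reads and the macrophage receptor gene Csf1r had 1, 1 and 9. Cd14 and Spi1 were low and higher later, at 0.192, 0.986 and 1.25 FPKM and at 0.192, 0.802 and 1.39 FPKM, from 7, 28 and 44 reads and from 4, 13 and 28.

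The paralogs of Laptm5 moved less. Laptm4a, a widely expressed relative, measured 83.6, 108 and 119.6 FPKM, a ratio of 1.43 at P2 (interval 1.37 to 1.496). Laptm4b, which is reported to bring an amino acid transporter to lysosomes, measured 24.8, 34.4 and 34.4 FPKM, a ratio of 1.38 at P2 (interval 1.28 to 1.498). All members of the family were thus above P0 in both later libraries, and Laptm5 was the one past 1.5-fold.

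Lamp1 and Lamp2, the main glycoproteins of the membrane, stayed close to P0. Lamp1, the gene with the highest level at P0, measured 171, 173 and 175 FPKM and its ratio of 1.022 at P2 had an interval of 0.985 to 1.06. With 5662, 4441 and 5585 reads this is among the most precise values of the set. Of its exonic bases, 9.31% are shared with Grtp1 in GENCODE M21. Under median-of-ratios scaling Lamp1 lay below P0, by log2 differences of -0.10 at P1 and P2. Lamp2 measured 11.0, 12.0 and 11.8 FPKM, within counting error in all comparisons. Cd63, a tetraspanin of late endosomes and secreted vesicles, measured 86.3, 104 and 112 FPKM, a ratio of 1.30 at P2 (interval 1.22 to 1.38).

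A pair of membrane genes was lower at P2 by less than 1.5-fold. Mcoln1, the calcium release channel TRPML1, measured 32.2, 30.7 and 26.2 FPKM, 1.23-fold lower at P2 (interval 1.11 to 1.36). Scarb2, the receptor LIMP-2 that brings glucocerebrosidase to the lysosome, measured 24.6, 26.4 and 20.6 FPKM, 1.197-fold lower at P2 (interval 1.12 to 1.28).

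The genes of both transcription factors were lower at P2 than at P0. Tfeb measured 37.6 FPKM at P0, 20.3 at P1 and 19.6 at P2, so that P0 stood high and the later libraries were alike. It was below P0 by 1.86-fold at P1 (interval 1.64 to 2.11) and by 1.92-fold at P2 (interval 1.71 to 2.16). With median-of-ratios scaling it passed 2-fold at P2, at a log2 difference of -1.03 in place of -0.91. It was the lowest of the 34 genes by ratio at P1 and at P2. Tfe3 was near its P0 level at P1 and lower at P2, with 42.8, 45.1 and 29.8 FPKM. From P1 to P2 it fell 1.51-fold (interval 1.42 to 1.61), and it was 1.44-fold lower at P2 than at P0 (interval 1.35 to 1.52), past 1.5-fold with either other scaling. The timing thus differed, with Tfeb low from P1 on and Tfe3 low at P2. Their mRNA levels do not tell where the proteins were, which is where these factors are mainly controlled. Of the related factor genes, Mitf measured 2.21, 1.79 and 1.71 FPKM and Tfec had 0, 0 and 1 reads.

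Other genes of lysosome function were read from 6 lists. Of all genes compared between P0 and P2, 20.2% rose, 6.46% fell and 57.7% were above P0, with a median log2 difference of 0.07. V-ATPase subunits, which acidify the organelle, stayed within 1.5-fold in all 17 cases at both later passages, with a median difference of 0.05 at P2. The largest differences were in Atp6v1g1, at 51.5, 46.3 and 37.3 FPKM, and Atp6v1a, at 76.4, 89.4 and 95.6, followed by Atp6v0a2 and Atp6v0d1 at log2 differences of 0.21 each.

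Of 32 further hydrolases and cofactors, 27 were compared between P0 and P2, with a median of -0.06. Among them 4 rose and 2 fell, and 2 passed 2-fold upward, where 6.72% of all genes compared did. Fuca1, the alpha-fucosidase, measured 33.2, 61.9 and 69.8 FPKM (2.10-fold at P2, interval 1.92 to 2.30), and Aga, which cuts the link between sugar chain and asparagine, 4.94, 6.93 and 11.6 FPKM (2.35-fold, interval 1.96 to 2.82). Both act on the sugar chains of glycoproteins. Smpd1, the acid sphingomyelinase, measured 3.70, 5.10 and 5.95 FPKM, and Dnase2a, the acid nuclease, measured 11.2, 9.95 and 7.32. Naaa also rose at P2. At P1 Fuca1 and Naaa rose and Acp5 fell.

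Of 20 further membrane genes, 19 matched a symbol and 17 were compared at P2, with a median of 0.17. There 2 rose and 0 fell. Tmem175, a lysosomal ion channel gene, measured 4.31, 6.33 and 9.24 FPKM (2.14-fold at P2, interval 1.797 to 2.56) and Slc29a3, a nucleoside transporter gene, 6.76, 10.9 and 10.4. At P1 Slc29a3 and Slc17a5 rose. Glmp and Tmem192 followed at P2 with log2 differences of 0.34 and 0.28.

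The 9 genes of mannose 6-phosphate tagging and enzyme sorting had a median of -0.05 at P2 and none beyond 1.5-fold. Gnptg, a subunit of the tagging enzyme, measured 6.50, 9.92 and 9.12 FPKM and rose at P1, Nagpa, the enzyme that uncovers the tag, 11.0, 11.8 and 14.4, and the sorting receptor gene Sort1 6.01, 4.12 and 4.10. Gga3, a sorting adaptor gene, had a log2 difference of -0.25.

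Of 20 genes for nutrient sensing at the lysosome, 19 were compared at P2, with a median of -0.01. There 0 rose and 2 fell. Rragb, one of the Rag GTPases that recruit mTORC1, measured 17.4, 11.2 and 7.21 FPKM, 2.42-fold lower at P2 (interval 2.09 to 2.81), and it fell at P1 too. Fnip2, a partner of folliculin, measured 21.3, 16.5 and 13.2 FPKM, 1.61-fold lower (interval 1.49 to 1.75), and its relative Fnip1 7.51, 5.81 and 5.18. Rraga, the paralog of Rragb, was higher, at 62.8, 68.9 and 78.8 FPKM, and far above Rragb in level at each passage.

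Of 23 autophagy genes, all compared, 3 rose at P2 and 0 fell, with a median of 0.17 and 18 above P0. Atg14, which steers the lipid kinase complex that starts autophagosomes, measured 13.6, 23.5 and 28.1 FPKM (2.07-fold at P2, interval 1.89 to 2.27). Map1lc3a, one of the proteins that coat the autophagosome, measured 31.5, 44.5 and 50.7 FPKM, and Wipi1, a lipid-binding autophagy protein, 3.37, 5.31 and 5.35. Atg14 and Wipi1 also rose at P1. Gabarapl1, a relative of Map1lc3a, had a log2 difference of 0.40.

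**Figure D5:**
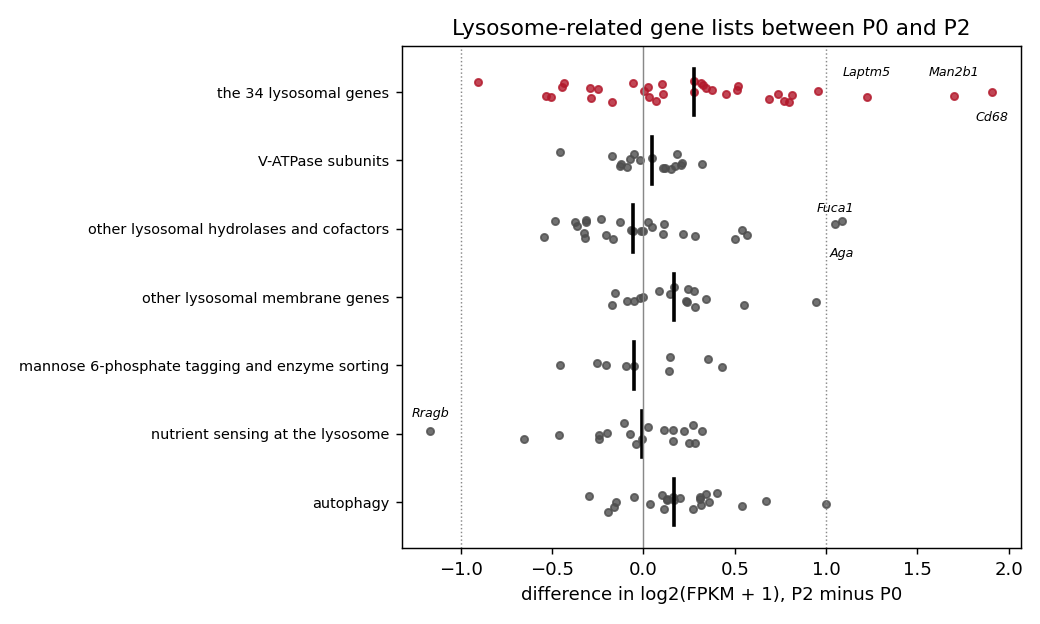
Difference in log2(FPKM + 1) between P0 and P2 for the 34 lysosomal genes (red) and the compared genes of 6 lists (grey), with each median as a black bar and dotted lines at 1 and -1. The medians of the lists lie between -0.06 and 0.17, below the 0.28 of the 34 genes, and Aga, Fuca1 and Rragb are the list genes past 2-fold. The 31 genes other than Man2b1, Cd68 and Laptm5 have a median of 0.11. The genes left out are the members past 2-fold, so leaving them out could only lower the median. The lists keep their own highest genes, so the 0.11 is not set against their medians.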

How the data were processed

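RNA was sequenced from 3 samples, 1 per passage. The authors deposited FPKM values, 1 per gene and library. Per the submitters' processing notes, the tools and build named are TopHat2 2.0.9, Bowtie2 2.0.6 and mm9. The counting program, annotation and strand used for counting: not given in the sources used here. Symbols came from GENCODE M21, which matched 49326 of 50043 IDs. Without strand, reads of overlapping genes cannot be told apart. The IDs fit a later annotation than mm9, so no positions are given beyond those of RefSeq promoters.

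Library totals and gene lengths under which every FPKM value is a whole number of reads were searched for. Reads were whole within a relative tolerance of 1e-11 for 26290 of 26291 IDs, all 34 members among them, and for 0 of 500 genes with changed totals. Recovered reads summed to 100.51%, 100.50% and 100.50% of the totals. For 3 members (Lamp2, Hexa, Asah1) the length, and so the interval, rests on the multiple nearest to the mean M21 transcript length. For 25 members the recovered length was that mean to 1 base, which sets levels between genes but no ratio between libraries. Intervals are conditional Clopper-Pearson intervals, and with no molecular identifiers reads may repeat a molecule. In GENCODE M21, 10 members share exonic bases with another gene, 5 of them over 10%.

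Alternatives were a pseudocount of 0.1, an FPKM floor of 5 or none, median-of-ratios scaling and quantile normalization. The 2-fold and 1.5-fold rules were tried on simulated reads for P0 and P2 with known changes. That simulation did not cover the intervals, scalings or motif counts. The members and lists were chosen with earlier results of these data known. Values in all libraries are given for members past 1.5-fold, the 5 highest at P0, Tfeb and Tfe3, and up to 4 genes with the largest P0 to P2 difference are named per list, and others were chosen after their values were seen. The values of 1 list gene are not reported here. Scripts ran in Python 3.11.15 with pandas 2.3.3, scipy 1.17.1, matplotlib 3.10.9 and numpy 2.4.6.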

Additional observations from a re-analysis of the deposited data

How the results depend on the processing

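No paired analysis was possible because each passage had 1 library. Man2b1 and Cd68 passed 2-fold at P1 and P2 under all 5 alternatives, and Laptm5 under all but median-of-ratios scaling at P1. With that scaling the median difference of the members was 0.12 at P1 and 0.17 at P2, and at P2 1 member (Tfeb) passed 2-fold downward and 4 fell at 1.5-fold (Hexa, Gusb, Tfeb and Tfe3). With quantile normalization the median at P2 was 0.14 and 3 fell. Between P1 and P2 the median of 0.00 turned to -0.0132 with median-of-ratios scaling and -0.0061 with quantile normalization, values near 0. With a pseudocount of 0.1, Ctsh passed 2-fold, at 1.51 for P1 and 1.68 for P2. Over all genes compared, 88.2% of those past 2-fold at P1 were higher and 85.3% at P2, against 74.9% and 70.5% with quantile normalization. Members with small differences changed sign with a scaling, among them Lamp1, Asah1, Gla, Lipa and Tpp1 at P2. With 1 library per passage, no difference can be set against the spread between cultures.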
